A study of Mus musculus with 4 samples.

Results

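The chemokine receptor gene Cxcr3 and the genes of its interferon-inducible ligands, Cxcl9, Cxcl10 and Cxcl11, were compared between regulatory T (Treg) cells that lack the deubiquitinase CYLD and Treg cells that have it. The 4 genes were chosen by name. Each had exactly 1 probe set annotated with its symbol alone, and 0 probe sets shared with another symbol. They are 4 of 19938 genes with such a probe set. All 4 lay above the intensity filter, the 30th percentile of the mean log2 values, which left 13956 genes for testing.

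Total RNA of sorted YFP-positive cells was hybridised to 4 Affymetrix arrays, 2 per genotype. The control mice were C57Bl6, Cyld+/+ Foxp3-yfp-cre, and the knockout mice were C57Bl6, Cyld fl/fl Foxp3-yfp-cre, all 6 to 8 weeks old, with no treatment named. The control cells thus carry the Foxp3-driven Cre and yellow fluorescent protein as well, and deletion of Cyld is limited to cells that express Foxp3. The labels give spleen with lymph nodes as the tissue in one place and spleen alone in another. They do not say that replicates came from separate mice, so p-values measure the spread between these samples only, which may be technical.

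CXCR3 is a G protein-coupled receptor that directs T cells into inflamed tissue. In T cells its gene is switched on by the transcription factor T-bet, and a T-bet-positive subset of Treg cells uses the receptor to reach sites of type 1 inflammation. The ligands CXCL9, CXCL10 and CXCL11 are secreted chemokines whose genes lie close together on 1 chromosome and are induced by interferons. NF-kB factors also act on these genes. CYLD removes ubiquitin chains from signalling proteins and limits NF-kB activity. C57BL/6 mice carry a frameshift in Cxcl11, and the RefSeq table of assembly GRCm38.p6 lists the gene as a transcribed pseudogene, so a change in its transcript does not stand for a change in functional chemokine.

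The upstream sequences of Cxcl10 and Cxcl9 are shown because these ligand genes of 1 cluster read in opposite directions in the knockout, with Cxcl9 not past the threshold. Both are the 250 bases before the RefSeq start (build GRCm38.p6), from chr5:92348890-92349139 for Cxcl10 and chr5:92328080-92328329 for Cxcl9, each on the minus strand and written 5′ to 3′ in the direction of transcription. Capitals mark matches on either strand to an interferon-stimulated response element core (GAAANNGAAA), a GAS element (TTCNNNGAA), an NF-kB element (GGGANNTNCC) or a T-box element (GGTGTGA).
Cxcl10: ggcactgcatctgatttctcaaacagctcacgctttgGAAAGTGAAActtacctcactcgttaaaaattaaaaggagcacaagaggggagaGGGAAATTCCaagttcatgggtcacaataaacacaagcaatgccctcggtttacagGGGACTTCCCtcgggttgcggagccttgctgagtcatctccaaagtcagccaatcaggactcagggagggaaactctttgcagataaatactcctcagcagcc
Cxcl9: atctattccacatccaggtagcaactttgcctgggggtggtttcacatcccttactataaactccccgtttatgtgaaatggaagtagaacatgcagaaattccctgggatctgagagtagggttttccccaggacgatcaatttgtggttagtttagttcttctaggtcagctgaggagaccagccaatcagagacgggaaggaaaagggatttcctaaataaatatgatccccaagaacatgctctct
The Cxcl10 sequence held 1 interferon-stimulated response element core, from 213 to 204 bases before the start, and 2 NF-kB elements, from 159 to 150 and from 103 to 94 bases before it. These NF-kB matches also fit the wider NF-kB consensus, and no match overlapped the response element core. The Cxcl9 and Cxcr3 sequences of the same length held no match to any of these motifs, which says only that these letters are not in the window. Among 32851 sequences of that length in the RefSeq table, 2.98% held the response element core, 7.02% the GAS element, 3.33% the NF-kB element, 3.9% the wider consensus and 3.33% the T-box element. The core together with at least 2 NF-kB elements was found in 3 of them, Cxcl10 included. The letters were chosen with the known elements of Cxcl10 in mind, so these shares and the lack of a match in Cxcl9 are a description. A link between the motifs and the changes was not tested. Cxcl11 was not matched in the promoter table.

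Before the results, the arrays themselves were compared. Array medians ran from an intensity of 99.0 to 105, and the number of arrays limits the precision. Cyld read 524 and 502 in wild type against 284 and 218 in the knockout; which part of the gene its probe set covers was not settled here. Knockout replicate 2 stood apart in the Y-linked genes Kdm5d and Eif2s3y, at 127 and 98.9, against 268 and 221 in knockout replicate 1 and 219 to 275 in wild type, so the results on the 4 genes are also given without it. In the Treg and T cell list, 0 of 8 markers passed the test in either direction (1 at an unadjusted p under 0.05). Over all tested genes 8.3% passed, so this count is too small to be set apart from that share. Foxp3, named as the gene that defines the cells, read 2016 and 1881 in wild type against 1697 and 1553 in the knockout. Il2ra, the marker at an unadjusted p under 0.05, read 2579 and 2499 against 1914 and 1810. Both knockout arrays were above both wild-type arrays for 3 of the 8 markers and below them for 2, these 2 genes. Over all tested genes those shares were 22.5% and 26.2%. Macrophage markers were lower in the knockout for 10 of 11 tested members of 14, where 3.5% of all tested genes were lower; 5 of the 10, Slc40a1 and Spic among them, were below the filter intensity of 77.4 in the knockout and were tested through their wild-type values. Vcam1, the brightest, read 683 and 710 in wild type against 285 and 327 in the knockout. The list had a summed intensity of 2645 to 2856 in wild type and 1248 to 1462 in the knockout; no marker was at 0. Fewer cells of a type and less RNA per cell cannot be told apart in such bulk samples. Dendritic cell markers had 0 of 7 past the threshold (0 at an unadjusted p under 0.05) and B and plasma cell markers 0 of 4 (1 unadjusted). These counts are too small to be set apart from 8.3%. Of the other lists, Fcer1g fell among 5 monocyte and granulocyte markers, Pecam1 among 5 markers of stroma and endothelium, and Eomes rose among 6 markers of CD8 T and NK cells.

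Of the 4 genes, Cxcr3, Cxcl10 and Cxcl11 were higher in the knockout at a limma adjusted p under 0.05 and 0 were lower; over all tested genes 4.79% were higher and 3.5% lower, 8.3% in all. The median log2 fold change of the 4 genes was 0.72, against -0.02 over all tested genes. Wild-type and knockout arrays did not overlap for any of the 4, which was also true of 48.7% of the tested genes, 22.5% with the knockout higher and 26.2% with it lower. With 2 arrays against 2, an exact two-sided permutation test of a single gene cannot go below p = 0.333, so the tests borrow their variance from all genes together. That pooling gives every gene the same standard error of 0.17 on the log2 scale, and without it 0 of the 4 genes passed, with 3 at an unadjusted p under 0.05.

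**Figure D1:**
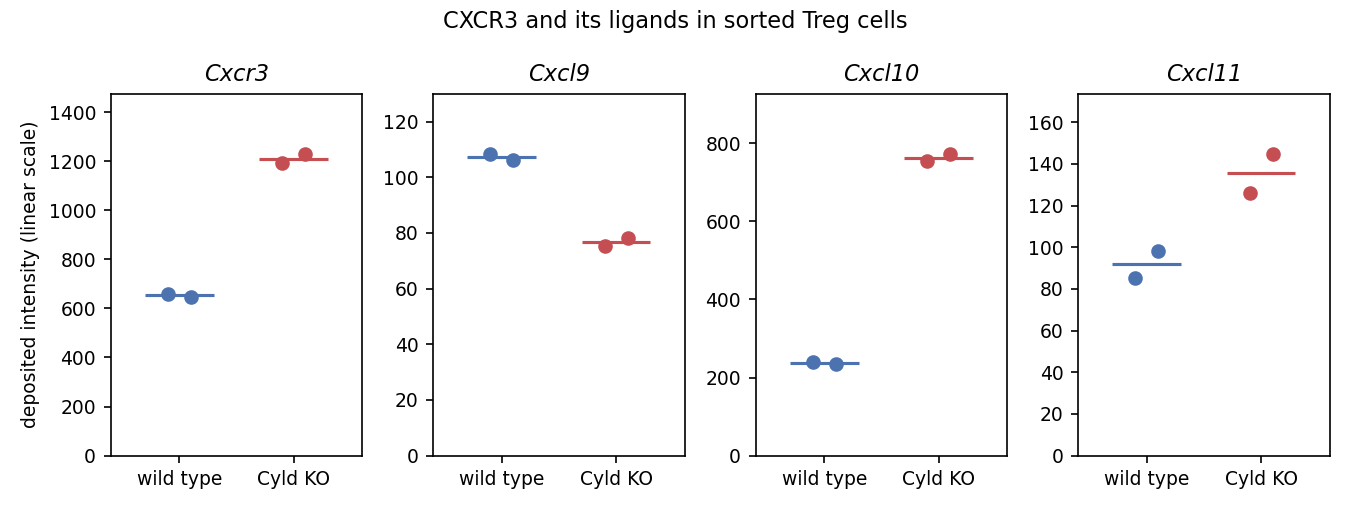
Deposited intensity (linear scale, from 0) of Cxcr3, Cxcl9, Cxcl10 and Cxcl11 on each of the 4 arrays; points are arrays and horizontal lines the mean of 2. The knockout arrays sit above the wild-type arrays for Cxcr3, Cxcl10 and Cxcl11 and below them for Cxcl9.

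The receptor gene nearly doubled its signal. Cxcr3 read 660 and 645 in wild type against 1191 and 1230 in the knockout. Arrays of 1 genotype lay close together, and the knockout mean was 1.85 times the wild-type mean. The log2 fold change was 0.89 ± 0.17 (SE, 95% interval 0.56 to 1.22, limma adjusted p = 8.95e-06). Single knockout and wild-type arrays differed by 0.85 to 0.93 on the log2 scale, while arrays of 1 genotype differed by at most 0.05. Cxcr3 is X-linked, and Xist, the RNA of the inactive X chromosome, read 1306 and 1403 in wild type against 1630 and 2321 in the knockout. By limma, Xist was higher (adjusted p = 0.0291) and the Y-linked Kdm5d and Eif2s3y lower (0.0160 and 0.00243), while Uty did not pass (0.546). Without knockout replicate 2, where Xist was highest, the log2 fold change of Cxcr3 was 0.87. Xist on the remaining knockout array was still above both wild-type arrays, so that fit does not remove the difference in Xist. A link of Xist or of sex to the Cxcr3 values was not tested.

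Cxcl10 had the largest change of the 4. This ligand, known as IP-10, attracts activated T cells and is made by many cell types under interferon or NF-kB signalling. It read 240 and 235 in wild type against 753 and 772 in the knockout, 3.21 times the wild-type mean. The replicates of each genotype were within 0.04 on the log2 scale. The log2 fold change was 1.68 ± 0.17 (SE, 95% interval 1.34 to 2.01, limma adjusted p = 1.98e-20), the 33rd largest rise among 13956 tested genes. Leaving out any 1 array moved it only between 1.66 and 1.70.

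Cxcl11 rose by less and with a wider spread. It read 85.5 and 98.1 in wild type against 126 and 145 in the knockout, with a log2 fold change of 0.56 ± 0.17 (SE, 95% interval 0.22 to 0.89, limma adjusted p = 0.0169). Replicates differed by 0.20 within each genotype, and pairs of knockout and wild-type arrays by 0.36 to 0.75. The gene lay 0.52 above the intensity filter on the log2 scale, near the dim end of the table, where background in the signal understates a fold. It did not pass without wild-type replicate 1 (log2 fold change 0.46, limma adjusted p = 0.497), wild-type replicate 2 (0.66, adjusted p = 0.117) or knockout replicate 2 (0.46, adjusted p = 0.109).

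Cxcl9, known as MIG and the ligand most tied to interferon-gamma, did not follow the other ligands. It read 108 and 106 in wild type against 75.5 and 78.3 in the knockout, 71.7% of the wild-type mean. Both knockout arrays were below both wild-type arrays, and replicates were within 0.05 on the log2 scale. The log2 fold change of -0.48 ± 0.17 (SE, 95% interval -0.81 to -0.14) missed the threshold over all genes (limma adjusted p = 0.0575). It stayed negative under every alternative in which Cxcl9 was tested, from -0.50 to -0.41, with adjusted p-values of 0.0520 to 0.495. Cxcl9 is also the dimmest of the 4 relative to the filter, 0.23 above it. Macrophages are a known source of CXCL9, and the macrophage list given above was lower in the same arrays; Csf1r, the receptor for a macrophage growth factor, picked for mention with its values in view, read 230 and 214 in wild type against 73.6 and 102 in the knockout. The part of that shift in the Cxcl9 values was not tested. Cxcl10 and Cxcl11 were higher in the same knockout arrays. Macrophage signal and genotype differ together in this design, and a link between that signal and any of the ligands was not tested.

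**Figure D2:**
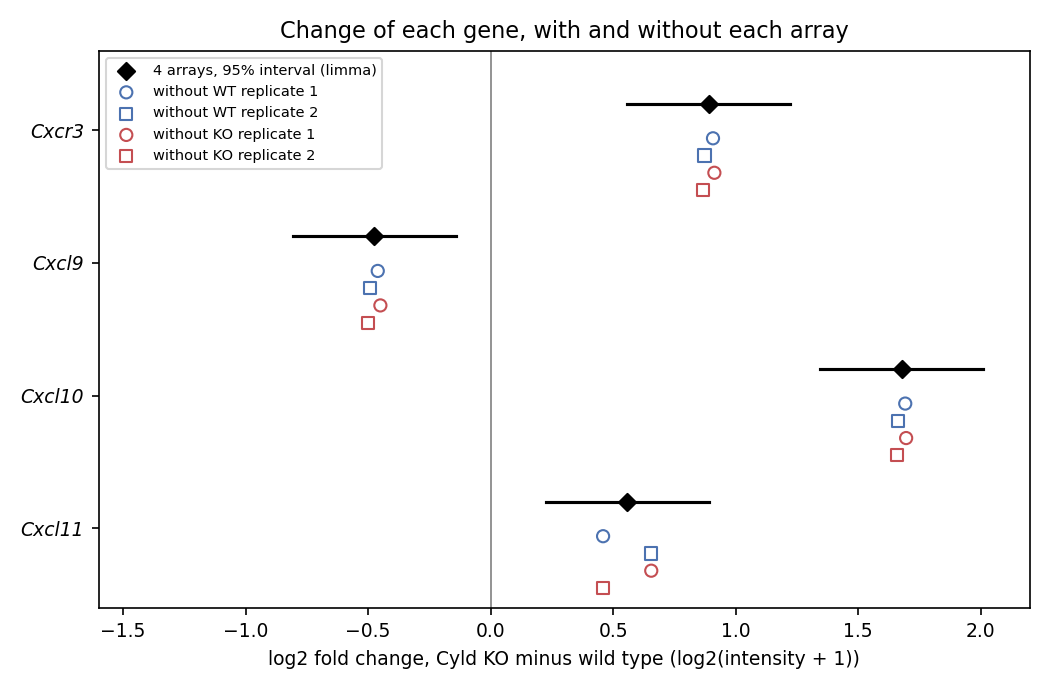
Log2 fold change (knockout minus wild type, log2(intensity + 1)) of each gene; black diamonds and lines are the fit to 4 arrays with its 95% interval, open symbols the fit without 1 array. Cxcr3 and Cxcl10 barely move, Cxcl11 ranges from 0.46 to 0.66 and Cxcl9 stays below 0.

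The shift of each ligand relative to another was also taken within arrays, where a constant scaling of an array largely cancels. These shifts are differences of the log2 fold changes above, so they restate them and add no separate support. The log2 value of Cxcl10 minus that of Cxcl9 was 1.14 on both arrays of wild-type cells against 3.30 and 3.29 in the knockout. The difference thus shifted by 2.15, while replicates of the same genotype agreed to within 0.02. For Cxcl11 minus Cxcl9 the shift was 1.03, with replicates up to 0.23 apart, and for Cxcl10 minus Cxcl11 it was 1.12, also with replicates up to 0.23 apart. Cxcl9 lay below the filter intensity of 77.4 on 1 knockout array and just above it on the other, and was tested through its wild-type values, so the size of a difference from it is uncertain. In each of these comparisons the groups did not overlap, which for the differences from Cxcl9 follows from the single-gene values. The smallest exact permutation p of this design is again 0.333.

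The neighbours of the ligand genes were compared in the same way. Of the 10 protein-coding genes that flank the cluster in RefSeq gene order, 5 on each side, 6 were tested and 0 passed by limma. Art3, which overlaps ligand genes and is given below, is not among the 10. At an unadjusted p under 0.05 there were 2, and at 8.3% over all genes the count of 0 says little about so few. Log2 fold changes ran from -0.37 for Scarb2, a lysosomal membrane protein gene, to 0.06 for Ccdc158. Sdad1, which lies next to Cxcl9, read 175 and 170 in wild type against 129 and 145 in the knockout (log2 fold change -0.33, limma adjusted p = 0.248). On the other side, Nup54, a nuclear pore gene next to Cxcl11, read 278 and 216 against 227 and 228 (-0.11, adjusted p = 0.776). Art3, looked up after the values were seen, overlaps Cxcl10 and Cxcl11 in RefSeq and lay below the filter, at 76.5 and 70.2 in wild type against 58.9 and 55.1 in the knockout, lower on both knockout arrays. Beside Cxcr3, 5 of 10 neighbours were tested and 0 passed (limma; 0 at an unadjusted p under 0.05), again too few to read against 8.3%, with log2 fold changes from -0.25 to 0.15. Without knockout replicate 1, Scarb2 and Uso1, beside the ligand genes, had log2 fold changes of -0.53 and -0.51. Ogt, beside Cxcr3, had -0.51. With all arrays the values of Scarb2, Uso1 and Ogt were -0.37, -0.27 and -0.25. The fit without knockout replicate 1 leaves 1 knockout array, so only sizes are given for it. These genes are named after their values were seen.

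**Figure D3:**
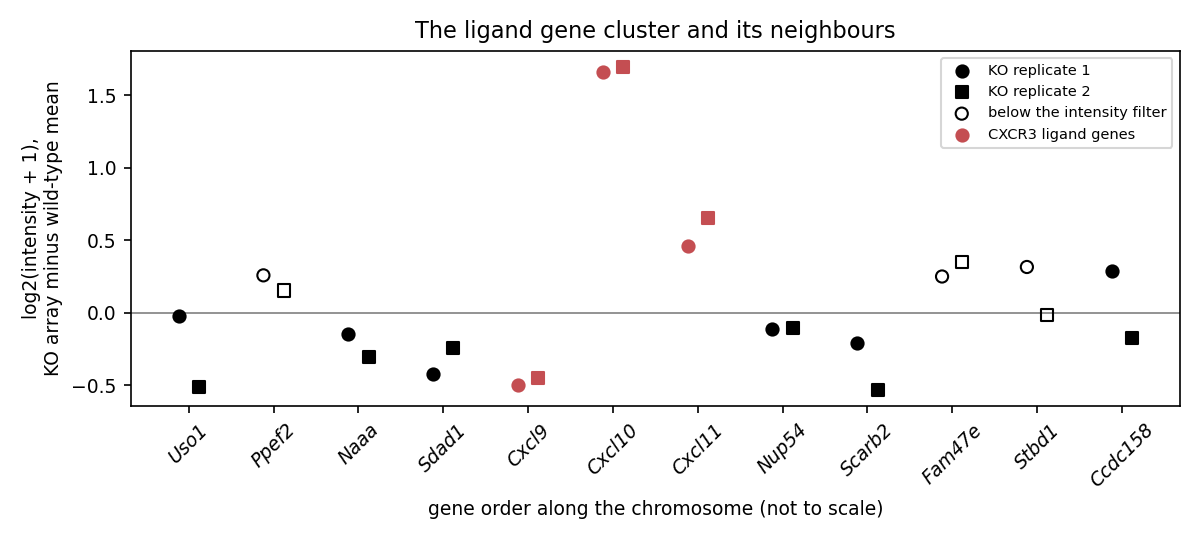
Log2(intensity + 1) of each knockout array minus the wild-type mean, for the ligand genes (red) and the flanking genes with a probe set. Genes are in chromosome order and not to distance, and open symbols lie below the intensity filter. Art3, which overlaps Cxcl10 and Cxcl11, is not shown. Cxcl10 and Cxcl11 are above 0 on both arrays, Cxcl9 is below, and no tested neighbour passed the threshold in the fit to 4 arrays.

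Genes of the T-bet programme, meaning T-bet, the cytokine receptors that induce it and its type 1 targets, included several that rose with Cxcr3. Among the 19 tested, 7 were higher and 2 lower, 47.4% against 8.3% over all genes, and the list's median log2 fold change was 0.36. This list, like the others below, was chosen with earlier results of these data known, so such shares are descriptions. The largest rises were in Ccl3 and Ccl5, chemokines of effector T cells, with fitted log2 fold changes of 2.93 and 2.58, followed by Eomes, a T-box factor related to T-bet, and Il18rap, a subunit of the interleukin-18 receptor. Ccl3, 1 of the 7, averaged 60.9 in wild type, below the filter intensity of 77.4, and passed the filter through its knockout values. Its place in the count and the size of its fold are therefore uncertain. Eomes read 109 and 98.9 in wild type against 297 and 342 in the knockout (log2 fold change 1.61, limma adjusted p = 8.23e-19). Eomes also marks CD8 T and NK cells. Of the other 5 tested markers of that list 0 passed, too few to read against 8.3% over all genes. The summed intensity over its 7 markers other than Eomes was 914 and 932 in wild type against 996 and 938 in the knockout. Cd8a and Cd8b1 are picked for mention with their values in view. Cd8a read 101 and 95.3 against 120 and 92.5, with overlapping groups. Cd8b1 read 362 and 405 against 469 and 426, higher on both knockout arrays. A part of such cells in the Eomes values was not tested. Il18rap read 135 and 114 against 311 and 222 (log2 fold change 1.08).

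T-bet itself and interferon-gamma changed less firmly, and both are named after their values were seen. Tbx21, the T-bet gene, read 182 and 158 in wild type against 234 and 302 in the knockout (log2 fold change 0.65, limma adjusted p = 0.00332), but did not pass without wild-type replicate 2 (adjusted p = 0.263) or knockout replicate 2 (0.103). Ifng read 153 and 149 against 280 and 194 (0.63, adjusted p = 0.00491) and had adjusted p-values of 0.133 to 0.170 when knockout replicate 1 or one or the other wild-type array was left out. The 2 members that fell, also named with their values in view, were Il6st, the gp130 chain shared by interleukin-6 and interleukin-27 receptors, with a log2 fold change of -0.89, and Ifngr2, a chain of the interferon-gamma receptor, with -0.50. Ifngr2 did not pass when any array but knockout replicate 1 was left out, nor with the replicate number as a block (adjusted p = 0.0579). Fewer members of the list passed when wild-type replicate 2 was left out, and fewer of all tested genes did as well.

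Other interferon-gamma target genes were counted beside Cxcl10. Of 23 tested members 1 was higher and 0 were lower (6 at an unadjusted p under 0.05), 4.35% against 8.3% over all genes, a share too close to the background to be a result about the list. Their median log2 fold change was 0.20, against -0.02 over all tested genes. Both knockout arrays were above both wild-type arrays for 12 of the 23 and below them for 5. Over all tested genes these shares were 22.5% and 26.2%. The member that rose was Icam1, an adhesion molecule that NF-kB also induces, which read 311 and 316 in wild type against 546 and 469 in the knockout (log2 fold change 0.69, limma adjusted p = 0.00147); without wild-type replicate 1 or 2 its adjusted p was 0.103 and 0.0776, and 0 members passed. Irf1, the interferon regulatory factor that binds response elements of the kind shown in Cxcl10, read 700 and 766 against 978 and 775 (0.25, adjusted p = 0.427). The guanylate-binding protein gene Gbp4 read 638 and 694 against 737 and 560 (-0.05, adjusted p = 0.906), and Gbp3 read 641 and 652 against 888 and 901 (0.47, adjusted p = 0.0641). Irf1 and these genes are named after their values were seen. The number of members that passed also moved when 1 knockout array was left out, as did the number over all tested genes.

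A list of NF-kB and interferon regulatory factor genes, with their inhibitors, kinases, sensors and interferon receptors, was counted next. Relb, Nfkb2, Nfkbia and Irf5 were among those that rose. Among the 25 tested, 6 were higher and 1 lower, 28% against 8.3% over all genes, with a median log2 fold change of 0.18. Relb, a subunit of noncanonical NF-kB, read 195 and 171 in wild type against 331 and 323 in the knockout (log2 fold change 0.84, limma adjusted p = 3.95e-05). Its partner Nfkb2 rose by 1.05 and the inhibitor gene Nfkbia, itself an NF-kB target, by 0.93. The inhibitor genes Nfkbie and Nfkbib rose by 0.77 and 0.56, and Nfkbib ranged from 0.35 to 0.76 without 1 array. The NF-kB subunit genes Rela and Rel did not pass, with log2 fold changes of 0.14 and -0.05. Nfkbie, Nfkbib, Rela and Rel were picked for mention with their values in view. Irf5, an interferon regulatory factor, read 142 and 139 against 258 and 242 (0.83, adjusted p = 5.07e-05). The kinase subunit gene Ikbkb, the member that was lower and named for that reason, fell by 0.66 on the log2 scale, and did not pass without wild-type replicate 1 (limma adjusted p = 0.173) or 2 (0.0742). Stat2 and Irf9, which form the interferon-stimulated complex and were picked for mention with their values in view, did not pass, with log2 fold changes of -0.27 and -0.32. Leaving out wild-type replicate 2 lowered the number of members that passed, and also the number over all tested genes.

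Downstream of the receptor, genes of chemokine signal transduction changed in both directions. Among the 35 tested, 4 were higher and 6 lower, 28.6% against 8.3% over all genes, with a median log2 fold change of -0.09. Plcb3, a phospholipase C activated by G proteins, read 215 and 219 in wild type against 456 and 463 in the knockout (log2 fold change 1.08, limma adjusted p = 2.23e-08). Its relative Plcb2, named after its values were seen, read 819 and 815 against 546 and 503 (-0.64, adjusted p = 0.00389), but did not pass without either wild-type array (adjusted p = 0.147 and 0.130). Rasgrp2, which activates the integrin switch Rap1, fell from 535 ± 40.2 to 312 ± 44.1 (mean ± SD, n = 2; limma adjusted p = 1.63e-04, and 0.0759 without wild-type replicate 1). Genes that damp chemokine receptors went both ways. Rgs16, a brake on G protein signalling, rose by 0.72 and Grk5, a receptor kinase, by 0.69 on the log2 scale; without wild-type replicate 2 their adjusted p-values were 0.103 and 0.145. Of the same families, Rgs14 fell by 0.56 (limma adjusted p = 0.0162) and Grk6 by 0.54 (0.0217), both picked for mention with their values in view. Neither passed when either wild-type array was left out, with adjusted p-values of 0.168 to 0.462, and Rgs14 also not without knockout replicate 2 (0.120) or Grk6 without knockout replicate 1 (0.0762). Fits without 1 wild-type array called fewer members of this list, and fewer genes of the whole table as well.

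Among the other CXC chemokines and their receptors, 1 of 9 tested members was higher and 0 were lower, 11.1% against 8.3% over all genes. This was Cxcr4, the receptor for the homeostatic chemokine CXCL12, which read 445 and 440 in wild type against 867 and 832 in the knockout (log2 fold change 0.94, limma adjusted p = 2.22e-06). Cxcr5, the follicle-homing receptor, read 528 and 450 against 376 and 370 (-0.39, adjusted p = 0.164) and is named after its values were seen. Of 9 listed genes that cleave or scavenge CXCR3 ligands, 5 were tested and 0 passed by limma (0 at an unadjusted p under 0.05). So few cannot be read against 8.3% over all genes. Dpp4, the surface protease that trims these ligands, read 537 and 497 in wild type against 439 and 422 in the knockout (-0.26, adjusted p = 0.396), and Sdc4, a heparan sulfate proteoglycan, read 234 and 199 against 299 and 236 (0.30, adjusted p = 0.322).

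**Figure D4:**
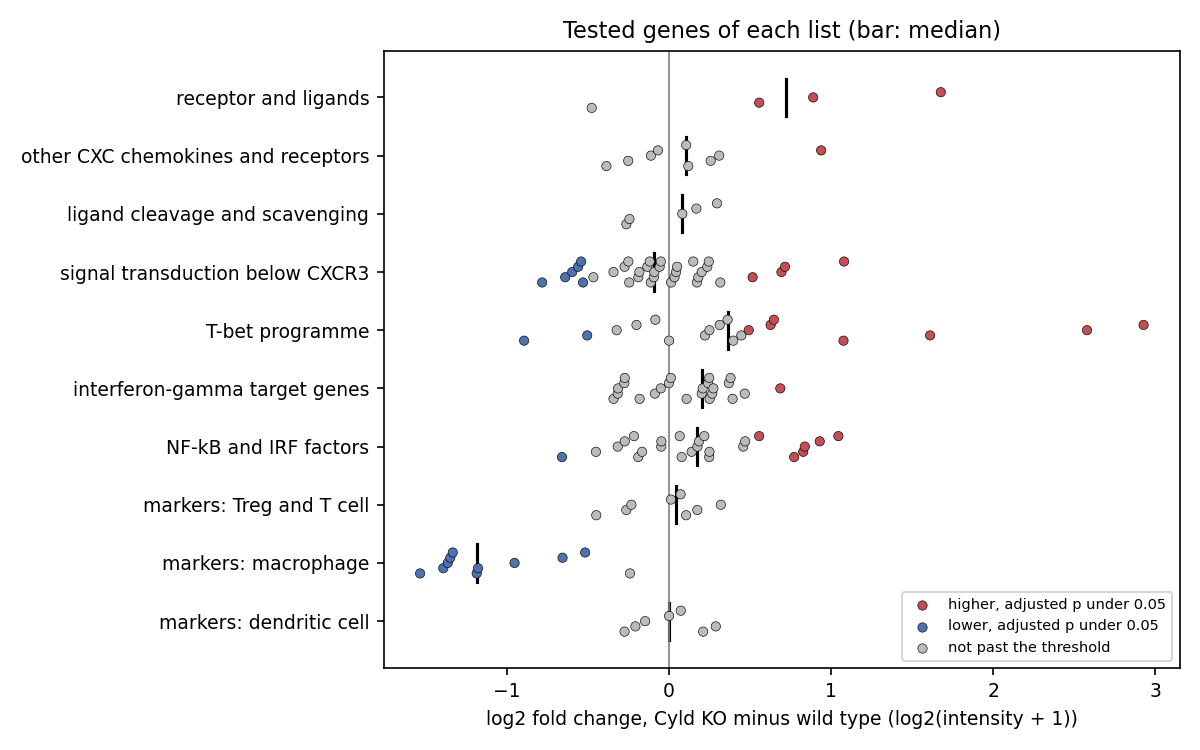
Log2 fold change (knockout minus wild type) of every tested gene in the lists shown, coloured by its limma call at an adjusted p under 0.05; black bars are list medians. Of the receptor and its ligands, Cxcl9 alone is left of 0. T-bet genes run from -0.89 to 2.93 and NF-kB and interferon regulatory factor genes from -0.66 to 1.05. Interferon-gamma targets have a median of 0.20 and macrophage markers lie to the left.

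The genes whose pattern over the 4 arrays was most like that of each gene were found by the distance between log2 values centred on the wild-type mean. For Cxcr3 these were Stx11, a syntaxin of the cytotoxic granule pathway, at a distance of 0.04, then Rnf43 and Zdhhc2, at 0.05 and 0.06. Stx11 read 421 and 400 in wild type against 766 and 771 in the knockout. For Cxcl10 they were Dnase1l3, an extracellular nuclease gene, at 0.08, which read 147 and 151 against 491 and 477, then Eomes at 0.17 and Apobec1 at 0.18. For Cxcl11 they were Mdm1, Arfgef3 and S100a1, at 0.08 to 0.09. The distance itself selects genes of a similar fold change.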

How the data were processed

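Per the labels' protocols, RNA from the sorted cells was labelled as biotinylated cRNA by the standard Affymetrix procedure. The deposited table holds linear intensities for each probe set, judged from their range (26.6 to 7205). How the authors summarised and scaled it was not given in the sources used here, and no detection calls were used. Probe sets were named from the platform annotation, whose symbols can be old (21789 of 35557 with exactly 1 symbol), and each gene was represented by its brightest one. Intensities were converted to log2(value + 1), and genes above the 30th percentile of the mean were tested with limma 3.58.1 in R 4.3.3 (lmFit, eBayes; Benjamini-Hochberg over 13956 genes, threshold 0.05). Folds are on that scale and understate changes of dim genes. On simulated data for this comparison (13956 genes, 200 changed) the test found 44.5% of 1.5-fold, 99.4% of 2-fold and 100% of 4-fold changes. The 4 genes, the lists and the alternatives were chosen with earlier results of these data known. The text names the 4 genes, list members past the threshold (all if 5 or fewer, otherwise the 4 with the largest change; the 2 brightest where none passed), leading markers, chromosomal neighbours and the 3 most alike genes; others are marked. Promoter sequences are from RefSeq.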

Additional observations from a re-analysis of the deposited data

How the results depend on the processing

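Cxcr3 and Cxcl10 passed the threshold, with log2 fold changes of 0.86 to 0.91 and 1.62 to 1.70, under every alternative tried (filter, scaling, pseudocount, intensity trend, array weights, probe set rule, replicate number as a block, each array left out) except the fit with no pooling of variances. That fit called 0 genes in all (1814 at an unadjusted p under 0.05), and so 0 of the 4 genes and 0 members of each list; its adjusted p-values were 0.214 for Cxcr3 (0.89), 0.208 for Cxcl10 (1.68) and 0.399 for Cxcl11 (0.56). Cxcl9 and Cxcl11 were not tested with the filter at the median. Leaving out 1 array gave 398 to 1666 genes called, against 1158, 2 to 3 of the 4 genes, and Cxcl11 log2 fold changes of 0.46 to 0.66. Over the same fits the lists had 2 to 9 members called for signal transduction, 5 to 8 for the T-bet programme, 0 to 3 for interferon-gamma targets, 4 to 8 for NF-kB and interferon regulatory factors and 0 to 3 for the chromosomal neighbours; fits without 1 array have 1 residual degree of freedom, and the cause was not otherwise tested. Interferon-gamma targets had 2 called with 16 added before the logarithm and 3 with an intensity trend; the cause was not tested. Same-numbered replicates share only a number (correlation of their deviations -0.09). With that number as a block, 1032 genes and 3 of the 4 were called, and of the list genes past the threshold Ifngr2 and Il12rb1 no longer passed (adjusted p = 0.0579 and 0.0674 by limma).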
